A study of Mus musculus with 16 samples.

Results

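The effect of dexamethasone (DEX), a synthetic glucocorticoid, was examined in the dorsal raphe nucleus (DRN) of mice that had coped actively with chronic social defeat. These were the 5 libraries labeled as active coping, 3 after saline and 2 after DEX, of 16 in the series, and they were chosen by their labels alone. All 16 came from male C57BL/6 mice, for which the labels name no introduced allele. The AS (active coping strategy) mice had met aggressive CD1 males during 30 days and had been classed by their behavior in non-aggressive contact, and PS (passive coping strategy) and unstressed control mice formed the other groups. Each mouse received saline or 2 mg/kg of DEX by intraperitoneal injection, and tissue was taken 6 h later. The tissue was punched from frozen sections, so each value is a mean over neurons, glia and vessels. Below, a library is named by its treatment and the number in its label, so that saline 40 is the library labeled dep2_sal_40. The AS libraries were saline 8, saline 14, saline 40, DEX 38 and DEX 42.

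The glucocorticoid receptor waits in the cytoplasm in a complex with heat shock proteins and co-chaperones. Once it binds cortisol, corticosterone or DEX it moves to the nucleus, where it raises transcription of many genes by binding DNA at glucocorticoid response elements, and lowers that of others. The DRN holds the main serotonin neurons that project to the forebrain, and these neurons carry the receptor.

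The letters of one such element, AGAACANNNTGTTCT (N is any base; it reads the same on both strands), were looked for in promoters to show what the induced genes carry next to their start sites. RefSeq promoters of 300 bases (GRCm38.p6, 250 before and 50 after the start) were matched by symbol to 58 of the 78 genes called higher and to 12 of the 22 called lower. The full element was found in 1 called gene, Sgk1, which encodes a glucocorticoid-induced kinase acting on ion channels. It occurred in 1 of the 10282 genes of the table with a promoter sequence (0.00973%), so Sgk1 was also the only one there, and in 3 of all 27025 genes (0.0111%). A single arm, AGAACA on either strand and thus also within any full element, was found in 11 of the 58 higher genes (19%) and 2 of the 12 lower genes (16.7%), beside 14.6% of the genes of the table and 21.3% of all genes. Of the 3 promoters below, those of Sgk1 and Fam107a carry these letters, in capitals, and that of Fkbp5, the gene with the smallest p, carries none of them within this window. The Sgk1 promoter lies at chr10:21993640-21993939 on the plus strand and its element begins 189 bases before the start site. The Fam107a promoter is at chr14:8309730-8310029 and the Fkbp5 promoter at chr17:28486100-28486399, both on the minus strand.
Sgk1: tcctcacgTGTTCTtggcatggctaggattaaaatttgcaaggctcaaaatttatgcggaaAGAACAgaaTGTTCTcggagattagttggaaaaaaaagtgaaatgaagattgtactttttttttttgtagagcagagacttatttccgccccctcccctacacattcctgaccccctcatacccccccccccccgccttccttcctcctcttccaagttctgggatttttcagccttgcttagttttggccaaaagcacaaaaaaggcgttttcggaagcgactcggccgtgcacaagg
Fam107a: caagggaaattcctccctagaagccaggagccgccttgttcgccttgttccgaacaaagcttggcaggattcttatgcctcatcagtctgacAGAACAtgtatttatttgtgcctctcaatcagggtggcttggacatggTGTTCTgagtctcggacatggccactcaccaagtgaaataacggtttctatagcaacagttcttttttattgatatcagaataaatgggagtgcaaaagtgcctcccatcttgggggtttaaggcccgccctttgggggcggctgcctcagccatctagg
Fkbp5: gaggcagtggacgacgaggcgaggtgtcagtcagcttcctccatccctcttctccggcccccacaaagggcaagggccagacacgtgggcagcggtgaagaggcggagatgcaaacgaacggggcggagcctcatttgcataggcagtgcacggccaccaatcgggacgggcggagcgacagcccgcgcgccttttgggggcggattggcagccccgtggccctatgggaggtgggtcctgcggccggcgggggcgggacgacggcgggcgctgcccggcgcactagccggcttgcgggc

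In AS mice 100 of 14504 genes were called, at a Benjamini-Hochberg adjusted p under 0.1 in limma (0.689%), 78 higher (0.538%) and 22 lower (0.152%) after DEX. Values are normalized counts, the reads of a gene divided by 1 size factor for its library, and fold changes are on the scale of log2(normalized count + 1), so changes of low genes come out too small. The p-values measure the spread between these libraries, and a comparison of 2 with 3 libraries leaves that spread to be estimated over all 6 groups. Both DEX libraries lay outside the range of the 3 saline libraries in each of the 100 called genes, as their choice by the p of this contrast favors. Arms that did not overlap were found in 29.8% of all genes, 15.1% with DEX above and 14.8% with DEX below. Called genes changed by between 0.43 and 4.75 on the log2 scale, and 38 of those higher but 7 of those lower changed by at least 2-fold. The median was 0.98 for genes called higher and -0.82 for those called lower, and -0.01 over all genes.

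Depth did not set the AS libraries apart, with 39845090 to 62447298 reads in the listed genes, but saline 40 stood away from the other 4. It was the highest of the 5 in 5303 genes (36.6%) and the lowest in 5323 (36.7%), whereas each of the others was highest or lowest in 11.9% to 23.2% of genes. The median absolute distance from the mean of the other 2 saline libraries was 0.34 on the log2 scale for saline 40, 0.17 for saline 14 and 0.23 for saline 8. Changes of the main genes and lists are therefore given with and without saline 40. Below, called means called by limma unless DESeq2 or edgeR is named. Over all 14504 genes DESeq2 called 183 higher and 91 lower, and edgeR 82 higher and 20 lower. Serotonin neuron markers were abundant in every AS library, with Tph2 between 91764 and 182191 normalized counts. The study left out DEX libraries of AS mice for low Tph2, so this level was in part selected, and more libraries are described than are analyzed here.

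**Figure D1:**
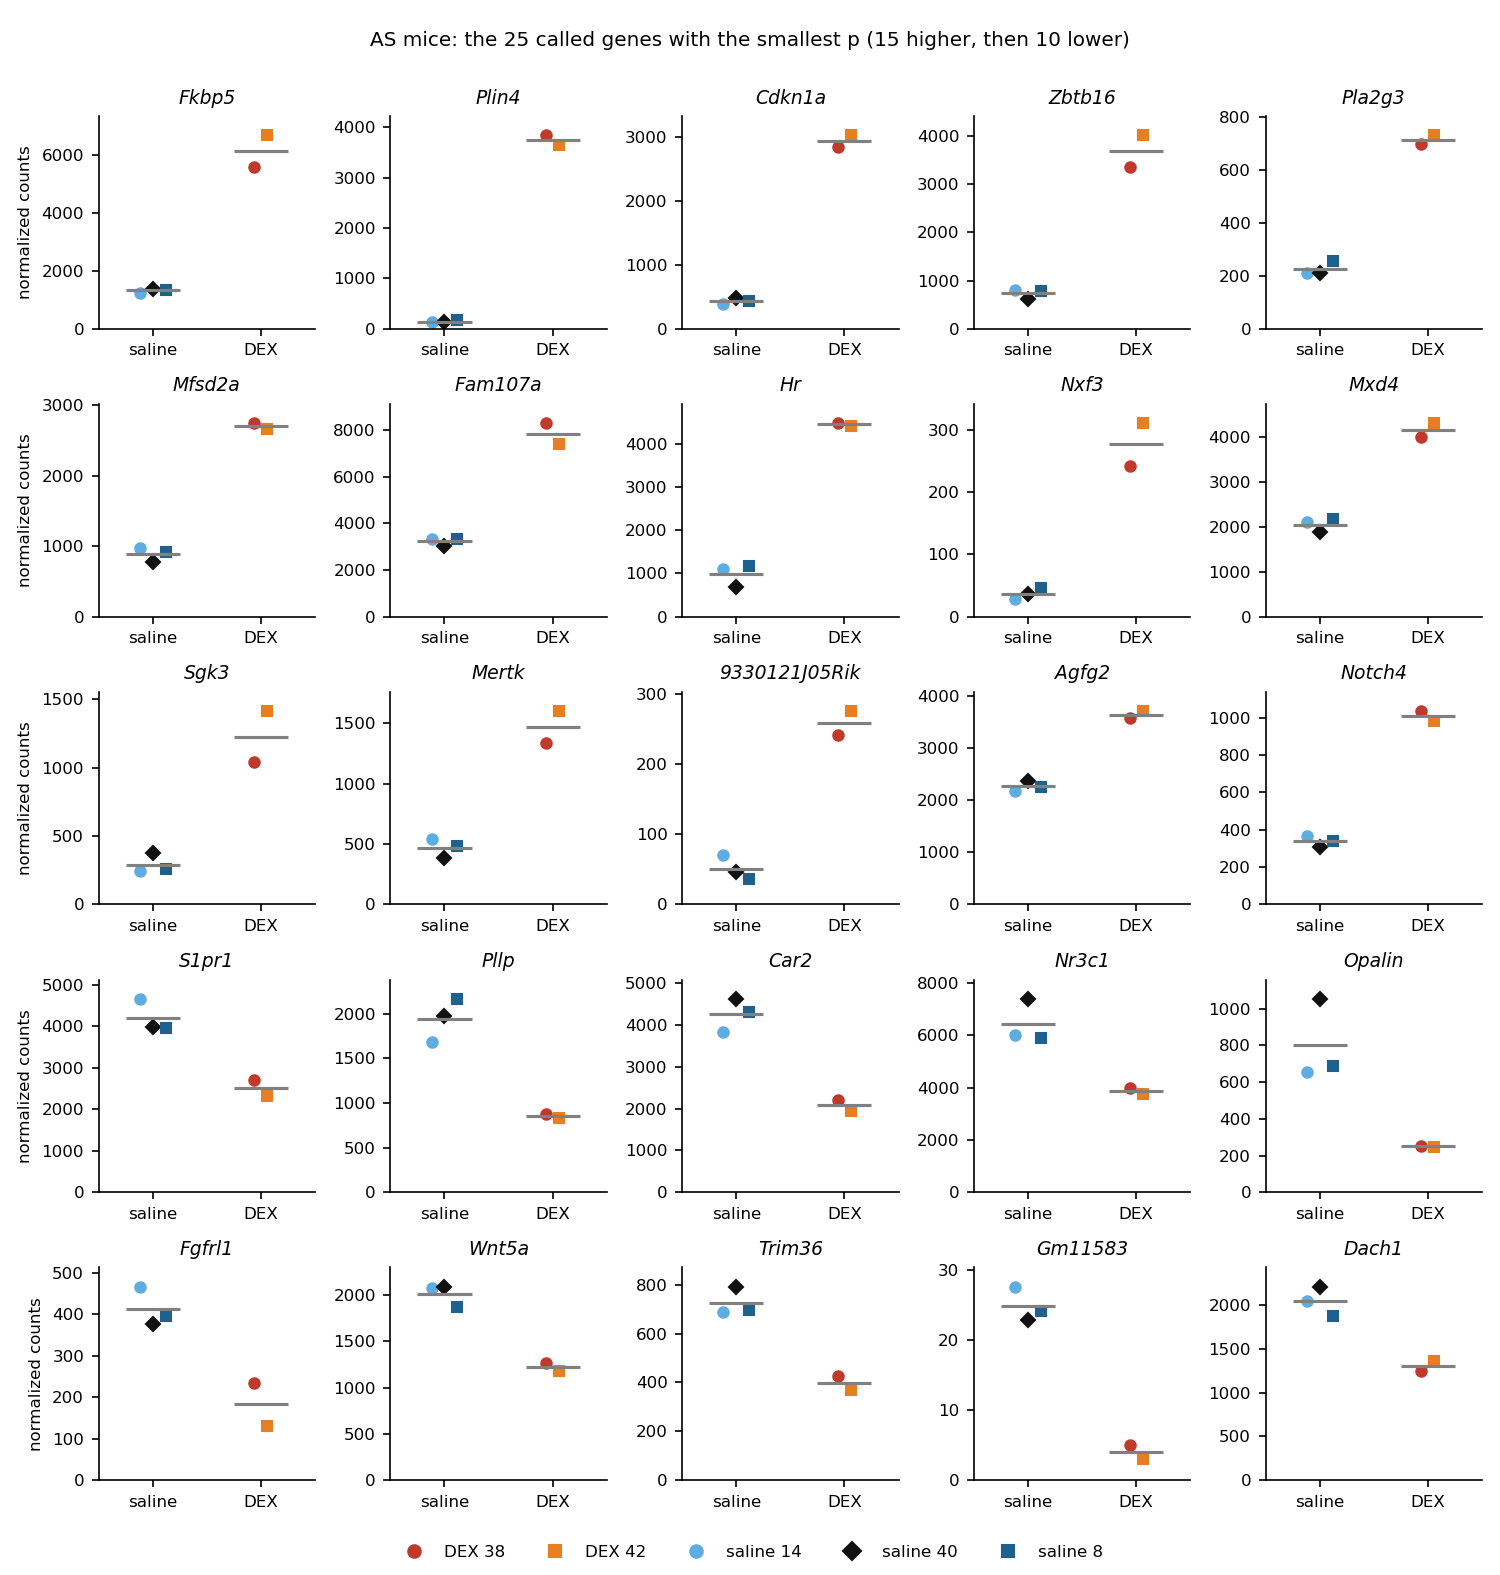
Normalized counts (linear axes from 0) of the 15 genes called higher and the 10 called lower with the smallest p, in 3 saline and 2 DEX libraries of AS mice. Each point is a library, grey lines are group means, and the black diamond is saline 40. In all 25 genes the DEX libraries lie outside the saline range.

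The gene with the smallest p was Fkbp5, a co-chaperone that lowers the hormone affinity of the glucocorticoid receptor and is itself induced by it (ENSMUSG00000024222.17, GRCm38 chromosome 17, 28399094 to 28517527). It stood at 5578 in DEX 38 and 6683 in DEX 42, against 1243 in saline 14, 1387 in saline 40 and 1347 in saline 8. Saline 40 was the highest saline library, close to saline 8. The log2 fold change was 2.204 (SE 0.109, limma adjusted p 1.56e-07), and 2.237 without saline 40.

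Plin4, which coats lipid droplets, changed most of all called genes (ENSMUSG00000002831.14, chromosome 17, 56100591 to 56109803). Its level was 3842 and 3649 in DEX 38 and 42 and 126, 124 and 168 in saline 14, 40 and 8. This was a log2 fold change of 4.75 (SE 0.27, limma adjusted p 4.51e-07), and 4.67 without saline 40. The other called targets listed under metabolism and metal binding were Pnpla2, a lipase of stored fat, Sult1a1, a sulfotransferase, and Mt2, a metallothionein. Pnpla2 rose from between 857 and 1196 in saline libraries to 2420 and 2743. Mt2 rose from between 3025 and 4374 to 7811 and 7585, a change of 1.09 (limma adjusted p 0.0476) whose call was lost without saline 40 (1.08, limma adjusted p 0.131). For Sult1a1, which went from between 91.6 and 189 to 480 and 424, saline 40 was the highest saline library and the change was 1.80 with it and 2.08 without it.

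Cdkn1a encodes p21, which halts the cell cycle by inhibiting cyclin-dependent kinases, and it has many uses in cells that no longer divide. It reached 2854 in DEX 38 and 3029 in DEX 42 from 395 in saline 14, 488 in saline 40 and 437 in saline 8. The log2 fold change was 2.74 (SE 0.16, limma adjusted p 4.51e-07), and 2.82 without saline 40. No other measured member of the 6 cell cycle genes among the listed targets was called, and the median over the 6 was -0.11. Ccnd1, which encodes cyclin D1, was at 769 and 888 after DEX and between 1003 and 1240 after saline, with an adjusted p of 0.482 in limma.

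Of transcription regulators, Zbtb16 (PLZF) went from 803, 622 and 793 in saline 14, 40 and 8 to 3363 and 4018 in DEX 38 and 42. That was 2.32 on the log2 scale (SE 0.20, limma adjusted p 5.55e-05), and 2.202 without saline 40. Hif3a, a hypoxia-inducible factor subunit, had its lowest level by far in saline 40, 128 against 341 and 295 in saline 14 and 8, and 1360 and 1352 after DEX. Its log2 fold change was 2.53 with and 2.09 without saline 40, both called. Tsc22d3, the gene of GILZ, rose by 0.77 (adjusted p 0.0788 in limma) and Klf15 by 0.59 (adjusted p 0.0839 in limma). Without saline 40 Klf15 changed by 0.52 and was not called (adjusted p 0.26 in limma). Hr, a nuclear corepressor that is not among the listed targets, showed 4485 and 4427 after DEX against 1107, 687 and 1175 in saline 14, 40 and 8. Its change was 2.21 (limma adjusted p 0.001), and 1.97 without saline 40. Mxd4, which represses targets of MYC, rose by 1.02 from a mean of 2056 ± 151 (SD, n = 3) to 4162 ± 220 (SD, n = 2) normalized counts.

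Among kinases and signaling genes, Sgk1, whose promoter is printed above, stood at 5029 and 6026 in DEX 38 and 42 against 2188, 3127 and 2884 in saline 14, 40 and 8. Saline 40 was the highest saline library. The log2 fold change was 1.03 (SE 0.15, limma adjusted p 0.00573), and 1.13 without saline 40. Its relative Sgk3 went from 242, 374 and 258 to 1041 and 1414 in the same order, a change of 2.08 (SE 0.27, limma adjusted p 0.00265), and of 2.27 without saline 40. Map3k6 rose by 2.03 and Ddit4, a brake on mTOR, by 0.66 (limma adjusted p 0.0994). Without saline 40 the change of Ddit4 was 0.69, and it was not called (limma adjusted p 0.186). Notch4, a Notch receptor of endothelium, went from 340 ± 30.3 (SD, n = 3) to 1009 ± 36.8 (SD, n = 2), and Mertk, a receptor kinase by which phagocytes take up dying cells and debris, went from 469 ± 81.7 to 1466 ± 189.

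Other genes with a small p had various roles. Mfsd2a carries lysophospholipids with omega-3 fatty acids across the blood-brain barrier, and its level was 2742 and 2663 after DEX against 970, 781 and 921 in saline 14, 40 and 8. This was 1.61 on the log2 scale (SE 0.16, limma adjusted p 0.000307), and 1.51 without saline 40. Fam107a, a stress-responsive gene of an actin-binding protein, rose from 3338, 3029 and 3314 to 8303 and 7404, a change of 1.28 (SE 0.15), and of 1.24 without saline 40. Pla2g3, a secreted phospholipase, went from 225 ± 25.5 (SD, n = 3) to 713 ± 23.8 (SD, n = 2). Nxf3, of the family of RNA export factors, went from 36.6 ± 8.4 to 277 ± 48.3, and the noncoding RNA 9330121J05Rik from 51.1 ± 17.2 to 259 ± 24.7. The latter lies opposite to Arhgef26, and whether reads were counted by strand is not given in the sources used here, so its value is uncertain. Agfg2 had a change of only 0.69, with 3580 and 3714 after DEX and 2174 to 2380 after saline. Pla2g3 overlaps Inpp5j on the other strand and carries the same uncertainty. So do Plin4 (with Hdgfl2) and, named below, Sds (Plbd2 and Gm15690), Usp54 (2810402E24Rik) and Galntl6 (BC030500).

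Of 52 listed glucocorticoid targets, 49 were measured and 17 were called, all higher, beside the 0.538% of all genes called higher. The list was chosen with earlier results of these data known, so its counts are a description and not a test. The median over the 49 was 0.56 on the log2 scale, and 0.48 without saline 40, when 14 were called. Both DEX libraries lay above the 3 saline libraries in 31 (15.1% of all genes) and below them in 3 (14.8% of all genes). DESeq2 called 23 of the 49, all higher, and edgeR 17, beside 183 and 82 of all 14504 genes called higher. Without saline 40 these tools called 21 and 14, beside 126 and 55 of all genes called higher. By role, 5 of 10 genes of chaperoning, adhesion and trafficking were called, 4 of 10 of metabolism and metal binding, 4 of 13 transcription regulators, 3 of 10 kinases and signaling brakes and 1 of 6 cell cycle genes. Listed targets did not all pass the test in limma. Per1, a clock gene, and Klf9 were called by DESeq2 but not by limma or edgeR. Per1 was at 3506 and 3327 after DEX and 1465 to 2438 after saline (0.79, limma adjusted p 0.123), Klf9 at 4893 and 4881 against 3568 to 4095 (0.37, limma adjusted p 0.22), and Dusp1, a phosphatase that ends MAP kinase signals, at 436 and 554 against 460 to 516 (0.02, limma adjusted p 0.972). Dusp1 arms overlapped. The mean log2 deviation of the list from its mean over 16 libraries was 0.41 and 0.45 in DEX 38 and 42 and -0.29, -0.41 and -0.37 in saline 14, 40 and 8.

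The receptor gene itself moved down. Nr3c1, the glucocorticoid receptor, stood at 4000 and 3760 in DEX 38 and 42 and 6021, 7386 and 5889 in saline 14, 40 and 8. Saline 40 was its highest library. The change was -0.72 (SE 0.13, limma adjusted p 0.0202), and -0.62 (limma adjusted p 0.0571) without saline 40. The call was lost without DEX 38 (adjusted p 0.124 in limma) and without DEX 42 (adjusted p 0.422 in limma), when 1 DEX library was assumed to vary like the other groups. Nr3c2, the mineralocorticoid receptor, was at 1301 and 1234 after DEX and 1848, 1500 and 1910 after saline 14, 40 and 8. The difference of -0.46 did not pass the test (limma adjusted p 0.329), and it was -0.57 without saline 40. DESeq2 called Nr3c2 without saline 40 (adjusted p 0.0525) but not with it. None of the 13 chaperones and co-chaperones listed with these receptors was called. Over the list of 15 the median was -0.29 with saline 40 and -0.14 without it. Saline 40 was the highest of the 5 libraries for 13 of the 15.

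The 22 lower genes included several of oligodendrocytes. Opalin, a membrane protein of myelinating cells, was at 253 and 247 in DEX 38 and 42 against 657, 1053 and 688 in saline 14, 40 and 8. The change was -1.64 (SE 0.29, limma adjusted p 0.0202), and -1.43 (limma adjusted p 0.07) without saline 40. Pllp, the myelin protein plasmolipin, fell from 1686, 1973 and 2168 to 878 and 831, a log2 change of -1.18 (SE 0.18, limma adjusted p 0.00737), and of -1.16 without saline 40. Car2, carbonic anhydrase 2, which oligodendrocytes hold in large amounts, fell from 3836, 4621 and 4302 to 2214 and 1936, a change of -1.03, and of -0.97 without saline 40. Fewer oligodendrocytes and less of these RNAs in each cannot be told apart in bulk tissue. Of 18 listed myelin genes limma and edgeR called Opalin alone, beside 0.152% of all genes called lower by limma. DESeq2 called 6, all lower (3 without saline 40), beside 91 (44 without it) of all 14504 genes called lower. The median was -0.47 and 2 members lay above 0. Without saline 40 the median was -0.42 and 1 member lay above 0. Mbp, which encodes myelin basic protein, had arms that overlapped (-0.08, adjusted p 0.887 in limma). Ugt8a, which makes a galactolipid of myelin, was at 904 and 787 after DEX and 1428 to 2004 after saline (-1.06, limma adjusted p 0.142). DESeq2 called Ugt8a with saline 40 (adjusted p 0.0113) and without it (adjusted p 0.0602), when its change in limma was -1.004. Of 10 precursor markers none was called, and Pdgfra stood at 2774 and 2972 against 2099 to 2513 (0.29, limma adjusted p 0.482).

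S1pr1, a receptor for sphingosine-1-phosphate, had the smallest p of all genes called lower. It was at 2697 and 2321 in DEX 38 and 42 and 4661, 3991 and 3967 in saline 14, 40 and 8, a change of -0.75 (SE 0.10, limma adjusted p 0.00269), and of -0.78 without saline 40. Cx3cr1, the fractalkine receptor of microglia, went from 1008 ± 72.6 (SD, n = 3) to 582 ± 103 (SD, n = 2). Its change was -0.80 (limma adjusted p 0.0569) and the call was lost without saline 40 (-0.75, limma adjusted p 0.186). It was also lost without saline 14 (limma adjusted p 0.125) and without saline 8 (limma adjusted p 0.118). The gene overlaps others on its own strand, so its reads could be shared. It was the only one of 17 microglia genes called by limma and edgeR, beside 0.152% of all genes called lower by limma. DESeq2 also called P2ry12 with saline 40 (adjusted p 0.0333) and not without it (adjusted p 0.337). The median of the 17 genes was -0.39 with and -0.28 without saline 40. The other genes with the smallest p were Fgfrl1, an FGF receptor relative without a kinase, Wnt5a, a Wnt ligand, Trim36, a ubiquitin ligase, Dach1, a transcription factor, and Gm11583. Fgfrl1 went from 413 ± 47.4 to 183 ± 72.5. Wnt5a was between 1872 and 2090 after saline and at 1266 and 1175 after DEX. Trim36 was between 688 and 792 after saline and at 426 and 370 after DEX, and Dach1 between 1880 and 2214 after saline and at 1252 and 1360 after DEX. Wnt5a, Trim36 and Dach1 changed by -0.72, -0.87 and -0.65 with saline 40. Without it they changed by -0.69, -0.80 and -0.59 and were not called (limma adjusted p 0.105, 0.121 and 0.121). Wnt5a and Dach1 were also not called without saline 14 (limma adjusted p 0.13 and 0.129). The noncoding gene Gm11583 was near the floor, at 5.05 and 2.95 after DEX and 22.9 to 27.6 after saline, and lies opposite to Kpnb1. It is the one called gene with another sign in PS, where it differed by 0.999 without passing the test.

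Serotonin genes were asked about because the DRN makes forebrain serotonin. None of the 16 genes of synthesis, transport and identity was called by limma, DESeq2 or edgeR, and 3 had an unadjusted p under 0.05 in limma. Tph2 encodes the rate-limiting enzyme of neuronal serotonin production and was at 100562 and 91764 in DEX 38 and 42 and at 115333, 182191 and 103435 in saline 14, 40 and 8. The difference of -0.43 (SE 0.24, limma adjusted p 0.562) became -0.19 without saline 40, and the DEX libraries had been selected for Tph2. Slc6a4, the serotonin transporter, and Fev, the transcription factor of these neurons, had arms that overlapped. Maoa, which breaks down serotonin, was at 5040 and 4910 after DEX and 5444 to 8025 after saline, with its top in saline 40. The difference of -0.37 (limma adjusted p 0.471) was -0.21 without that library. Among 10 measured receptor genes Htr1d, which restrains release from serotonin terminals, was called, beside 0.538% of all genes called higher. It rose from 829, 972 and 875 in saline 14, 40 and 8 to 1442 and 1530 in DEX 38 and 42. The change was 0.74 (SE 0.14, limma adjusted p 0.0267), and 0.80 without saline 40. Its call was lost without saline 14 (limma adjusted p 0.125). Htr1a, the autoreceptor of the cell body, differed by -0.27 (limma adjusted p 0.526). Htr5b was at 549 and 320 against 946, 1237 and 651, a difference of -1.12 that did not pass the test in limma (adjusted p 0.286) or edgeR (adjusted p 0.302) but was called by DESeq2 (adjusted p 0.06). Without saline 40 it was -0.90 in limma and not called by DESeq2 (adjusted p 0.447).

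Channels and transmitter receptors followed. Of 70 potassium channel genes 3 were called, all higher, beside 0.538% of all genes called higher. DESeq2 called 5 higher and 1 lower, beside 183 and 91 of all 14504 genes. Without saline 40 it called 4 higher and 0 lower, beside 126 and 44 of all genes. Kcna5 rose by 0.94, from 678 ± 62.9 (SD, n = 3) to 1302 ± 156 (SD, n = 2), Kcnk1, a 2-pore leak channel, by 0.64, from 1902 ± 193 to 2956 ± 121, and Kcng2, a subunit that modifies other channels, by 1.19, from between 71.4 and 103 to 210.1 and 189.8. Without saline 40 Kcng2 changed by 1.05 and was not called (limma adjusted p 0.213), and it was also not called without saline 14 (limma adjusted p 0.149). The median of all 70 was 0.17, and 0.02 without saline 40, which was the lowest library for 40 of them. Hrh1, the H1 histamine receptor, rose from 1103, 1275 and 1244 in saline 14, 40 and 8 to 1903 and 2105 in DEX 38 and 42, a change of 0.73 (limma adjusted p 0.0153), and of 0.77 without saline 40. No glutamate receptor was called by limma or edgeR, and 2 had an unadjusted p under 0.05 in limma. Grin2c, an NMDA receptor subunit, was at 1751 and 1805 against 927 to 1188 (0.77, limma adjusted p 0.2). DESeq2 called Grin2c with saline 40 (adjusted p 0.0485) and not without it (adjusted p 0.236), when its difference in limma was 0.69. Fgfr3, an FGF receptor of astrocytes, was called at 0.77 (limma adjusted p 0.0595), with 3837 in saline 40 and 5405 to 5639 in the other saline libraries, and the call was lost without saline 40 (0.59, limma adjusted p 0.131).

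**Figure D2:**
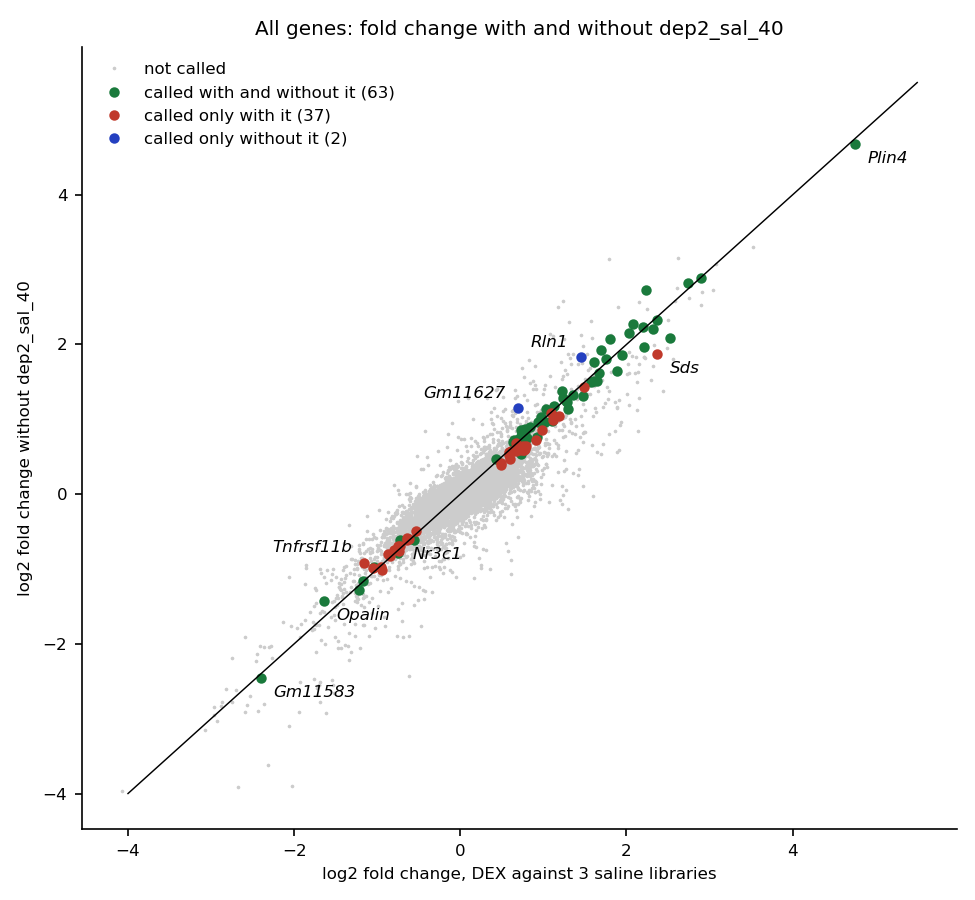
Log2 fold change of DEX against saline in AS mice for 14504 genes, with all 3 saline libraries (x) and without saline 40 (y). The line marks equality. Called genes stay near the line (63 called both ways, 37 only with and 2 only without saline 40). No called gene crosses 0, which was fixed for those called with saline 40, whose DEX libraries both lay outside the saline range.

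How far saline 40 carried the result differed between single calls and gene families. Without it 65 genes were called (0.448%), 57 higher (0.393%) and 8 lower (0.0552%). Of the first 100 genes 63 were kept, 55 higher and 8 lower, 37 were lost, and Rln1 and Gm11627 were gained. No called gene changed sign, and none of the first 100 could, because both DEX libraries lay outside the saline range in each. DESeq2 on the recovered reads called all 100 genes with saline 40 and also without it, while edgeR without it called 63 of them. The change without saline 40 was between 0.74 and 1.23 times that with it, and the median ratio was 0.97 for genes called higher and 0.96 for those called lower. In the 37 lost genes the median ratio was 0.89, and 4 of them had a larger change without the library. By comparison, 44 calls were lost without saline 14, with a median ratio of 0.99, and 26 without saline 8, also 0.99. The standard error of called genes was 1.05 times larger at the median without saline 40, 1.12 times without saline 14 and 1.11 times without saline 8.

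Lost genes that shrank most were Sds, Fgfr3, Tnfrsf11b, Usp54, Tns3 and Ptgfrn. Sds, a serine-degrading enzyme of low level here, was at 82.8 and 108 after DEX and 34.5, 8.24 and 18.3 in saline 14, 40 and 8, and went from 2.37 (limma adjusted p 0.0879) to 1.87 (limma adjusted p 0.261). Tnfrsf11b, the decoy receptor osteoprotegerin, was at 176 and 171 after DEX against 385, 542 and 280, and went from -1.16 to -0.92 (limma adjusted p 0.155). Usp54, Tns3 and Ptgfrn had their lowest value in saline 40 and went from 0.91, 0.78 and 0.77 to 0.72, 0.60 and 0.61. Calls of Tnfrsf11b, Usp54 and Ptgfrn were also lost without saline 14 (limma adjusted p 0.153, 0.182 and 0.144). That of Sds was also lost without saline 8 (limma adjusted p 0.134). The gained genes had high values in saline 40. Rln1, of the relaxin family, was at 194 and 185 after DEX against 34.5, 116.2 and 79.9 in saline 14, 40 and 8, and its change went from 1.45 (limma adjusted p 0.22) to 1.83 (limma adjusted p 0.0906). Gm11627 had 257 in saline 40, above both DEX libraries, and went from 0.69 to 1.15 (limma adjusted p 0.0953). Igf1r and Crocc, which limma and edgeR did not call, were lowest in saline 40. Igf1r, the IGF-1 receptor, was at 2042 in saline 40 and 3835 and 3765 in saline 14 and 8, with 4999 and 5360 after DEX. Its difference was 0.74 with and 0.45 without saline 40 (limma adjusted p 0.482 and 1). Crocc, the ciliary rootlet protein, was at 1538 in saline 40, 4060 and 4248 in saline 14 and 8 and 7730 and 7906 after DEX, which gave 1.39 with and 0.91 without it (limma adjusted p 0.275 and 0.715). DESeq2 called Crocc with saline 40 (adjusted p 0.0691) and not without it (adjusted p 0.706).

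**Figure D3:**
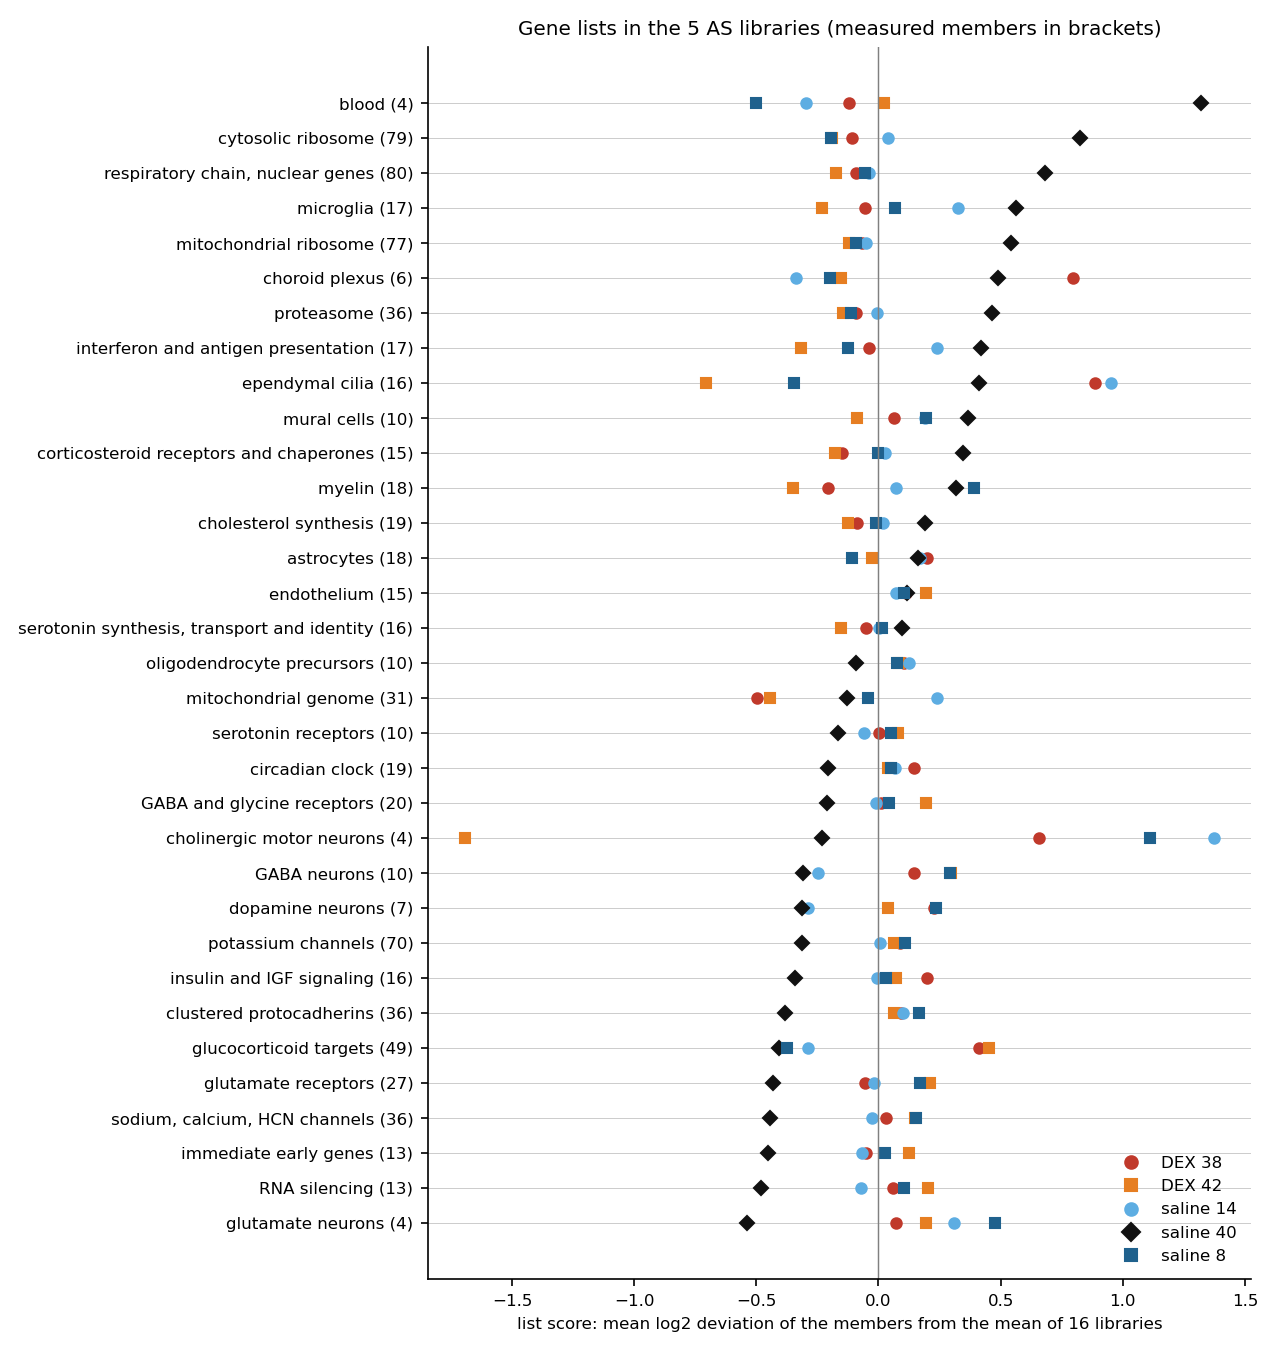
Score of 33 gene lists in the 5 AS libraries (x, mean log2 deviation of the members from their mean over all 16 libraries), sorted by saline 40. Saline 40 (black) lies apart from the other 4 in the ribosome, respiratory chain and proteasome lists, while the glucocorticoid targets separate DEX (red, orange) from saline.

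The families that make and power protein moved with saline 40. All 79 cytosolic ribosomal protein genes had their highest value of the 5 libraries there, beside 36.6% of all genes, and the list's score was 0.83 in saline 40 against -0.19 to 0.04 in the other 4. None of them was called by limma, DESeq2 or edgeR, and 0 had an unadjusted p under 0.05 in limma. Their median after DEX was -0.37 with every member below 0, and -0.07 with 15 members above 0 once saline 40 was left out. The 77 mitochondrial ribosomal genes went from -0.22 to -0.02, the 80 nuclear genes of the respiratory chain from -0.34 to -0.07 and the 36 proteasome genes from -0.26 to -0.07. Saline 40 was highest for 73, 77 and 33 of them. In the other direction the 36 sodium, calcium and HCN channels went from 0.18 to 0.02, the 27 glutamate receptor entries (Grik2 is listed under 2 identifiers) from 0.17 to 0.04, the 36 clustered protocadherins from 0.10 to -0.06 and the 13 RNA silencing genes from 0.28 to 0.12. Limma and edgeR called no member of these lists, and DESeq2 called Grin2c alone. The 31 genes of the mitochondrial genome did not lean on this library, at -0.52 with and -0.54 without it, with scores of -0.50 and -0.44 in DEX 38 and 42 and 0.24, -0.13 and -0.04 in saline 14, 40 and 8. None of them was called by limma, DESeq2 or edgeR, and 2 had an unadjusted p under 0.05 in limma.

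The deviation of saline 40 ran with transcript length. In the 2899 genes with the shortest transcripts (up to 1515 bases) its median was 0.29 above the other saline libraries on the log2 scale, and in the 2898 with the longest (from 5107 bases) it was -0.30. The median DEX effect in these classes was -0.13 and 0.13 with saline 40 and -0.04 and 0.03 without it. The part of length in the called genes was not tested. Of the 78 genes called higher 6 were in the shortest and 22 in the longest class, and of the 22 called lower 2 and 4. Blood genes were also high in saline 40, with a score of 1.32 over 4 genes against -0.50 to 0.02 in the other 4 libraries, and their part was not tested.

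Markers of neighboring cell types were uneven between the 2 DEX libraries, within the range of the other 11 libraries of the series. There the score ran from -1.93 to 1.61 for ependymal cilia and from -2.56 to 1.85 for cholinergic motor neurons. Over 16 genes of ependymal cilia the score was 0.89 in DEX 38 and -0.71 in DEX 42, beside 0.95, 0.41 and -0.34 in saline 14, 40 and 8. Over 4 cholinergic motor neuron genes it was 0.66 and -1.69 beside 1.37, -0.23 and 1.11, and Slc18a3, the vesicular acetylcholine transporter, was at 469 and 29.5 beside 677, 149 and 653. No member of either list was called by limma, DESeq2 or edgeR or had an unadjusted p under 0.05 in limma, and no member of either list was at 0. GABA neuron markers (median 0.40, and 0.24 without saline 40), dopamine neuron markers (0.31 and 0.06), glutamate neuron markers (0.00 and -0.24), mural cells (-0.25 and -0.18) and choroid plexus (0.52 and 0.29) had no member called by any of the 3 tools. In endothelium Mfsd2a was the 1 called of 15, and in astrocytes Fgfr3 of 18, beside 0.538% of all genes called higher. DESeq2 also called Slc2a1 in endothelium (adjusted p 0.0829) and Glul in astrocytes (adjusted p 0.0947). Without saline 40 it called Glul (adjusted p 0.00117) but not Slc2a1 (adjusted p 0.135). The part of cell makeup in the called genes was not tested. Limma and edgeR called none among 13 immediate early, 19 clock, 19 cholesterol synthesis, 17 interferon and antigen presentation, 16 insulin and IGF, and 20 GABA and glycine receptor genes, whose medians lay between -0.33 and 0.34. DESeq2 called Per1, Hmgcs1, Ifit3, Foxo1 and Gabrr2 of these. Without saline 40 it still called Per1 (adjusted p 0.0863). It then no longer called Hmgcs1, Ifit3, Foxo1 or Gabrr2 (adjusted p 0.178, 0.23, 0.458 and 0.139).

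**Figure D4:**
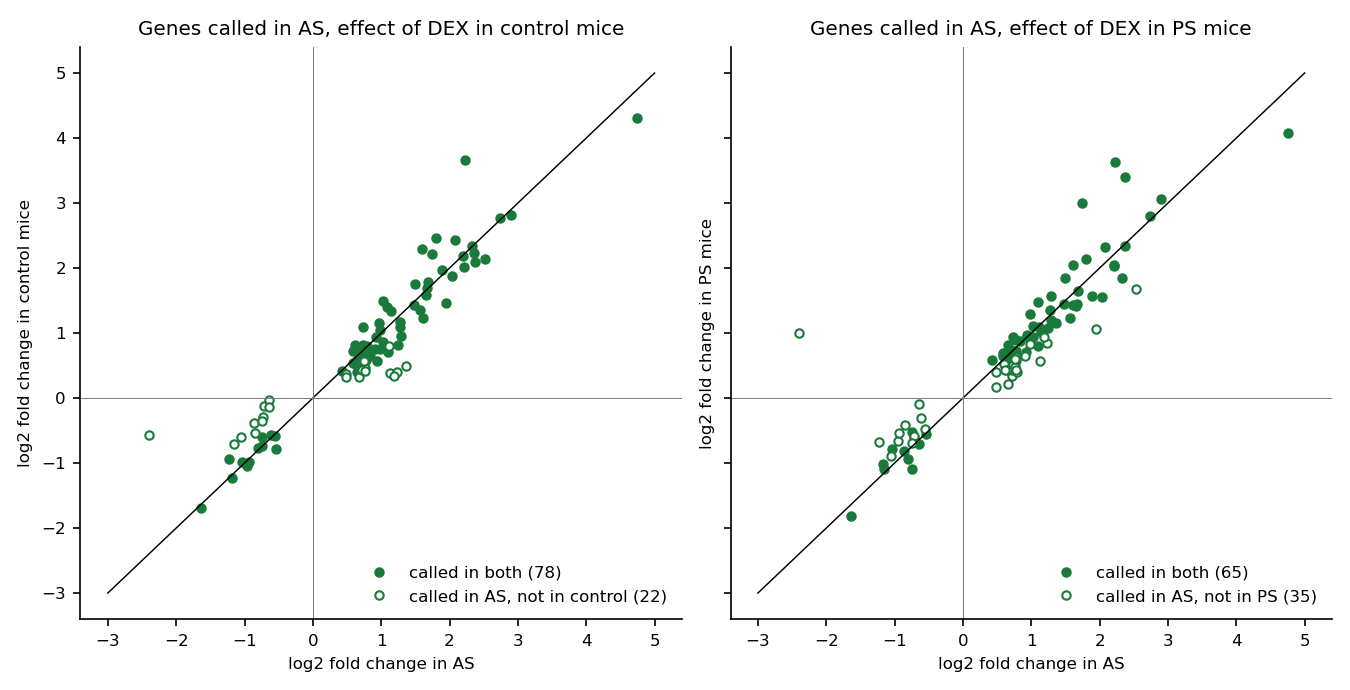
Log2 fold change after DEX of the 100 genes called in AS (x) against that in control mice (left) and PS mice (right). Filled points were also called there (78 in control, 65 in PS), open ones were not, and the line marks equality. Gm11583 is the open point far left, above 0 in PS.

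Whether these changes belonged to active coping was asked by comparing the AS effect with those of control and PS mice. These share no library with it, but 1 fit gave all 3 effects the same estimate of a gene's spread. A gene of small spread was thus favored in all 3, so the shared calls are not independent. Of the 100 genes 78 were also called in control mice (background 1.26% of all genes) and 65 in PS mice (background 0.703%), 57 in all 3, and 14 in AS alone. All 100 had the same sign in control and 99 in PS. Differences between effects were tested directly, and no gene was called for AS minus control (583 at an unadjusted p under 0.05) or AS minus PS (421). DESeq2 gave 0 and 1, and edgeR 0 and 0. The 1 gene, Cyb561d1, was at 766 and 744 after DEX and 619 to 677 after saline in AS, with a change of 0.23 in AS and -0.50 in PS and a difference of 0.74 (limma adjusted p 0.869). The smallest p for AS minus control were those of Galntl6 (-0.55), Zfp729a (-0.65) and 5330439K02Rik (-1.34), each at a limma adjusted p of 0.941. In AS these genes changed by -0.15, -0.07 and -0.30 and were not called. In control they rose by 0.40, 0.58 and 1.04 and were called. For AS minus PS they were those of Gm11583 (-3.40), Rpl9-ps6 (-2.50), a pseudogene that can share reads with Rpl9, and Cyb561d1. Nr3c1 differed by -0.29 in control and -0.61 in PS, and Wnt5a by -0.12 and -0.58, but their differences from AS had limma adjusted p of 0.941 against control and 0.906 and 0.894 against PS.

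**Figure D5:**
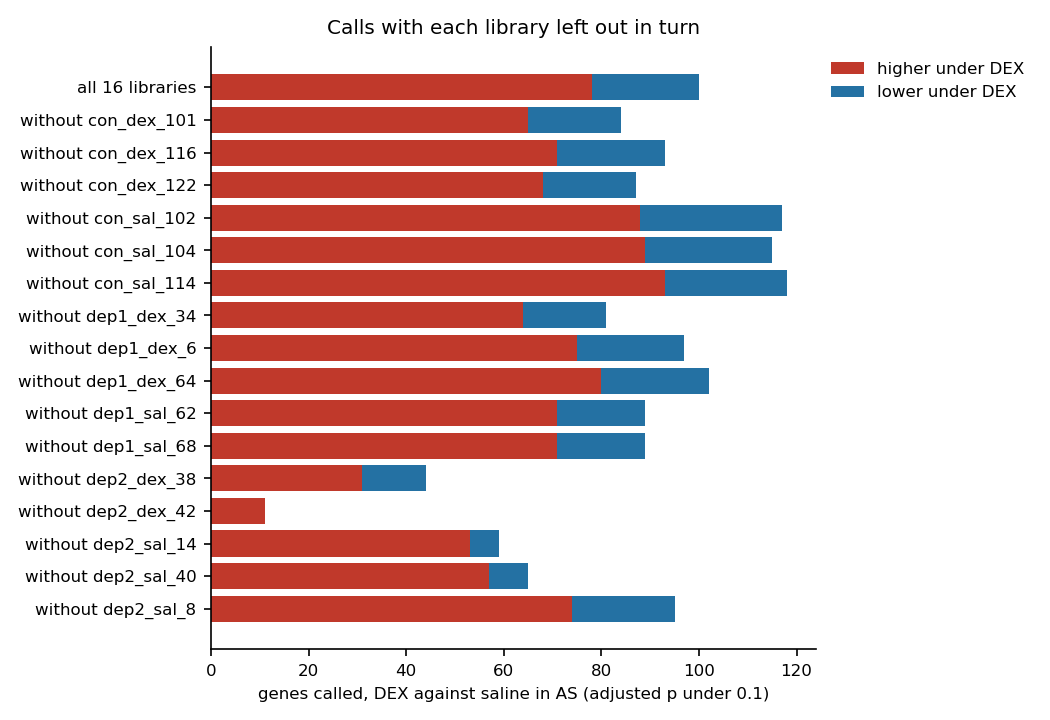
Genes called for DEX against saline in AS mice (x) with all 16 libraries and with each library left out, stacked as higher (red) and lower (blue) after DEX. The count falls to 11 without DEX 42 and 44 without DEX 38, and to 59 and 65 without saline 14 and saline 40.

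The DEX libraries weighed more than saline 40 in the count of calls. It was 11, with 0 lower, without DEX 42, and 44 without DEX 38, when a single DEX library was assumed to vary like the other groups. It was 59 without saline 14, 65 without saline 40 and 95 without saline 8, and between 81 and 118 when a library of another group was left out. A fit of only the 5 AS libraries called 6 genes, all higher. Those were Fkbp5, Plin4, Cdkn1a, Zbtb16, Mfsd2a and Fam107a, the same 6 of 37 named and called genes that passed under all 29 alternatives.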

How the data were processed

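PolyA RNA of the DRN was sequenced by the authors in 16 libraries, and the AS comparison used 3 saline and 2 DEX libraries with the other groups in the same fit. Per the labels, the authors trimmed reads with fastp 0.20.1, aligned them with HISAT2 2.2.1 to mm10 (GRCm38), counted genes with featureCounts (Subread 2.0) and fitted DESeq2 1.36.0. The labels and the study's methods name different extraction reagents and sequencers. The deposited signal is normalized counts, in which the reads of a gene were scaled by a factor of its library, and 100% of the values gave whole reads (tolerance 0.01), which fixed the depth of each library. The authors' comparison tables (log2 fold changes, p-values) were not used.

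log2(normalized count + 1) was fitted with limma 3.58.1 (R 4.3.3) with a mean for each of 6 groups and a trended eBayes prior (3.88 degrees of freedom, beside 10 from the residuals). Benjamini-Hochberg adjustment ran over all 14504 genes of the table and calls made at 0.1. An exact permutation of 2 against 3 libraries cannot reach that level, so none is given. DESeq2 1.42.0 and edgeR 4.0.16 on the recovered reads, other scalings, pseudocounts, filters and weights, and each library left out, were alternatives. Annotation came from GENCODE vM21, while the authors' was vM22. Members, lists and tests were chosen with earlier results of these data known. Named were the 15 higher and 10 lower genes of smallest p with separated arms, up to 4 called members of a list, 15 genes fixed by name, up to 6 genes lost and 6 gained without saline 40, and 3 genes per difference between effects. Other genes in the text were chosen after their values were seen, as members of a list or called genes of a role. Pairs of AS libraries of a group differed by more than counting noise.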

Additional observations from a re-analysis of the deposited data

How the results depend on the processing

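The count of 100 genes called in AS was 98 to 109 with other pseudocounts, filters, scalings, robust eBayes or edgeR. It was 1402 with library weights (a fit that stopped before it converged), 6 with only the 5 AS libraries and 274 with DESeq2. It ran from 11 (without DEX 42) to 118 when 1 library was left out, with 44 without DEX 38, 59 without saline 14 and 65 without saline 40. Both tools were also run without saline 40, chosen after seeing the data, and called 170 (DESeq2) and 63 (edgeR) genes. The count for AS minus control stayed at 0 in every fit. For AS minus PS it was 4 with library weights and 1 with DESeq2, and 0 in the other fits, among them all that left out 1 library. The named genes of the AS comparison kept their sign in the alternatives that gave them a value, which were 29, or 28 for Gm11583 and Sds, of low level. With 2 DEX libraries, leaving out 1 gives a value that rests on the other alone. No paired analysis was possible because the groups share no replicate number. Causes of the changes between fits were not tested.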

Other observations

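Among the called genes 1 pair lay within 50 kb of each other. Pnpla2, the lipase of stored fat, and Tspan4, a tetraspanin, are both on the plus strand of GRCm38 chromosome 7, with 14497 bases between them. Tspan4 was at 1320 and 1409 normalized counts in DEX 38 and 42 and 789, 717 and 584 in saline 14, 40 and 8, a log2 fold change of 0.98 (limma adjusted p 0.0114). Insl6, an insulin-like gene, was at 209 and 175 after DEX and 24.1, 81.5 and 32.3 after saline 14, 40 and 8, a change of 2.23 with saline 40 and 2.73 without it (limma adjusted p 0.0433 and 0.00377). Nrros and Slc7a5, chosen after their values were seen from 14 such genes, were called in AS and in neither control nor PS, at 1.13 and 0.49 in AS, 0.39 and 0.32 in control and 0.56 and 0.17 in PS, and the difference between these effects passed no test.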
